A study of Mus musculus with 8 samples.

Results

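The keratins of the periderm and of simple epithelia were followed in wild-type mouse dorsal skin at embryonic day 14.5 (E14.5, 2 arrays), E16.5 (3 arrays) and E18.5 (3 arrays). The members are the 7 genes Krt8, Krt18, Krt19, Krt4, Krt13, Krt6a and Krt17, chosen by name, and every probeset annotated to exactly 1 of these symbols was used. That gave 15 of the 34945 non-control probesets with a single gene symbol, namely 3 each for Krt8, Krt13 and Krt6a, 2 each for Krt4 and Krt17, and 1 each for Krt18 and Krt19. A further probeset that names Krt17 together with Krt14 was left out. All samples are labelled wild-type dorsal skin with no treatment named, no strain is named, and replicate numbers only name arrays. The labels do not say whether the samples came from separate embryos, so each p-value reflects only how far these samples differ among themselves, which may be technical.

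Keratins form filaments as pairs of a type I and a type II chain. Krt8 (type II) pairs with Krt18 or Krt19 (type I) in single-layered epithelia, among them liver, gut and the periderm, the flat outer layer that covers the embryonic epidermis until the cornified layer has formed. Krt4 (type II) and Krt13 (type I) are a pair of the moist stratified epithelia of mouth and oesophagus, and Krt4 is also made in periderm. Krt6a (type II) and Krt17 (type I) are made in periderm, in the hair follicle and in wounded epidermis. Krt8 and Krt18 are also the keratins of Merkel cells, the touch receptors of the skin.

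Promoter windows of 250 bases before to 50 bases after the annotated start (RefSeq, GRCm38.p6) were found for Krt8, Krt18 and Krt13, and they are shown because Krt8 and Krt18 neighbour each other among the keratin genes of chromosome 15 and changed together, whereas Krt13 followed another course. Krt19, Krt4, Krt6a and Krt17 had no entry. All are 5′ to 3′ on the gene's strand, and capitals mark matches to the motifs searched.
Krt8, chr15:102004293-102004592, minus strand: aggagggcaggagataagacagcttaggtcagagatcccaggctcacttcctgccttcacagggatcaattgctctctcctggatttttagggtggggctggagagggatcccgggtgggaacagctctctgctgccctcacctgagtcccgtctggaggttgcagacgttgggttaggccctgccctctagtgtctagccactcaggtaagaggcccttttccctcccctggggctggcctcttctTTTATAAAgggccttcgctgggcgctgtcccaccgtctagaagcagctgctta
Krt18, chr15:102027966-102028265, plus strand: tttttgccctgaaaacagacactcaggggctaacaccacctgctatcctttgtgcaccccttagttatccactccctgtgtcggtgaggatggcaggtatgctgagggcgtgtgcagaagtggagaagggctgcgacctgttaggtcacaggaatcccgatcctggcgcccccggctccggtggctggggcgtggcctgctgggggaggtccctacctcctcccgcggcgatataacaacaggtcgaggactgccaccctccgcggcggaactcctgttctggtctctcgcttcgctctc
Krt13, chr11:100120528-100120827, minus strand: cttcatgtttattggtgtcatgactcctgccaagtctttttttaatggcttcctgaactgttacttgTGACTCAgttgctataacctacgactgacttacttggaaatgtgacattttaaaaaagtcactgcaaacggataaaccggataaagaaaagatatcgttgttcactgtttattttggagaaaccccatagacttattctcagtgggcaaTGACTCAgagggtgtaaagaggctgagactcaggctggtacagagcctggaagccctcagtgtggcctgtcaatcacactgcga
Krt13, chr11:100121517-100121816, minus strand: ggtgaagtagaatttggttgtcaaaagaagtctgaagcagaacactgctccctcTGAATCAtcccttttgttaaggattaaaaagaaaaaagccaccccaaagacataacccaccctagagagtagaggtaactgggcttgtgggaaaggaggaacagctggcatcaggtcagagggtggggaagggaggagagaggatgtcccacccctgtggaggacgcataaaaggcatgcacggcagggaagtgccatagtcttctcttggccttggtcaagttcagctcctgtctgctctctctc
Both strands were searched for TATAAA (the TATA box), GGGCGG (the GC box), TGANTCA (the AP-1 motif) and AACCNGTT (the grainyhead motif). Both Krt13 windows held TGANTCA, at −196 in the window that ends at 100121816 and at −183 and −34 in the other, against 7.81% of all 32851 windows. The Krt8 window held TATAAA at −1 counted from the annotated start, overlapping a match on the other strand, against 13.62% of all windows. GGGCGG (35.66% of all windows) and AACCNGTT (2.09%) were in 0 of the 4 windows, and no motif searched lay in the Krt18 window.

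Values are the deposited signals in array units, and differences are on the log2(signal + 16) scale, later stage minus earlier, with a standard error (SE). A difference was called where limma's Benjamini-Hochberg adjusted p over all 34945 probesets was under 0.05. A signal counts as above background where it exceeds the 95th percentile of 80 olfactory and vomeronasal receptor probesets on the same array, which was 33.6 to 92.2. By this measure 7 of the 15 probesets were above background on all 8 arrays, and 3 on none (1 of Krt17 and 2 of Krt13). Where the dimmer stage had an array at or under background, that array was set to its background and the fold is given as a lower bound.

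The 2 E14.5 arrays stand apart, and each is therefore given separately. On both, the ratio of 3′ to 5′ beta-actin signal was 6.49 and 6.91, whereas it was between 1.11 and 1.14 at E16.5 and between 1.35 and 1.37 at E18.5. The 18S ribosomal RNA control gave 10133 and 8729 on the E14.5 arrays and 117 to 211 on the later arrays. The spike-in control BioB-3 gave 4535 and 4093, against 315 to 416. Embryonic stage and whatever set these controls apart therefore cannot be told apart in any comparison with E14.5. E14.5 replicate 1 also carried high liver transcripts. All 12 measured liver markers were above background there, with a summed signal of 113444, whereas 4 of 12 were above background on replicate 2 (sum 523) and 2 or 3 on each later array (sums 501 to 1433). The fetal liver gene Afp gave 31454 on replicate 1, 133 on replicate 2, which is also above background, and at most 19.2 on the later arrays. The 4 gut markers summed to 1173 and 174 on the same arrays. Of the basal epidermis markers 7 of 7 were above background on every array, which shows epidermal RNA but does not exclude other tissue.

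**Figure D1:**
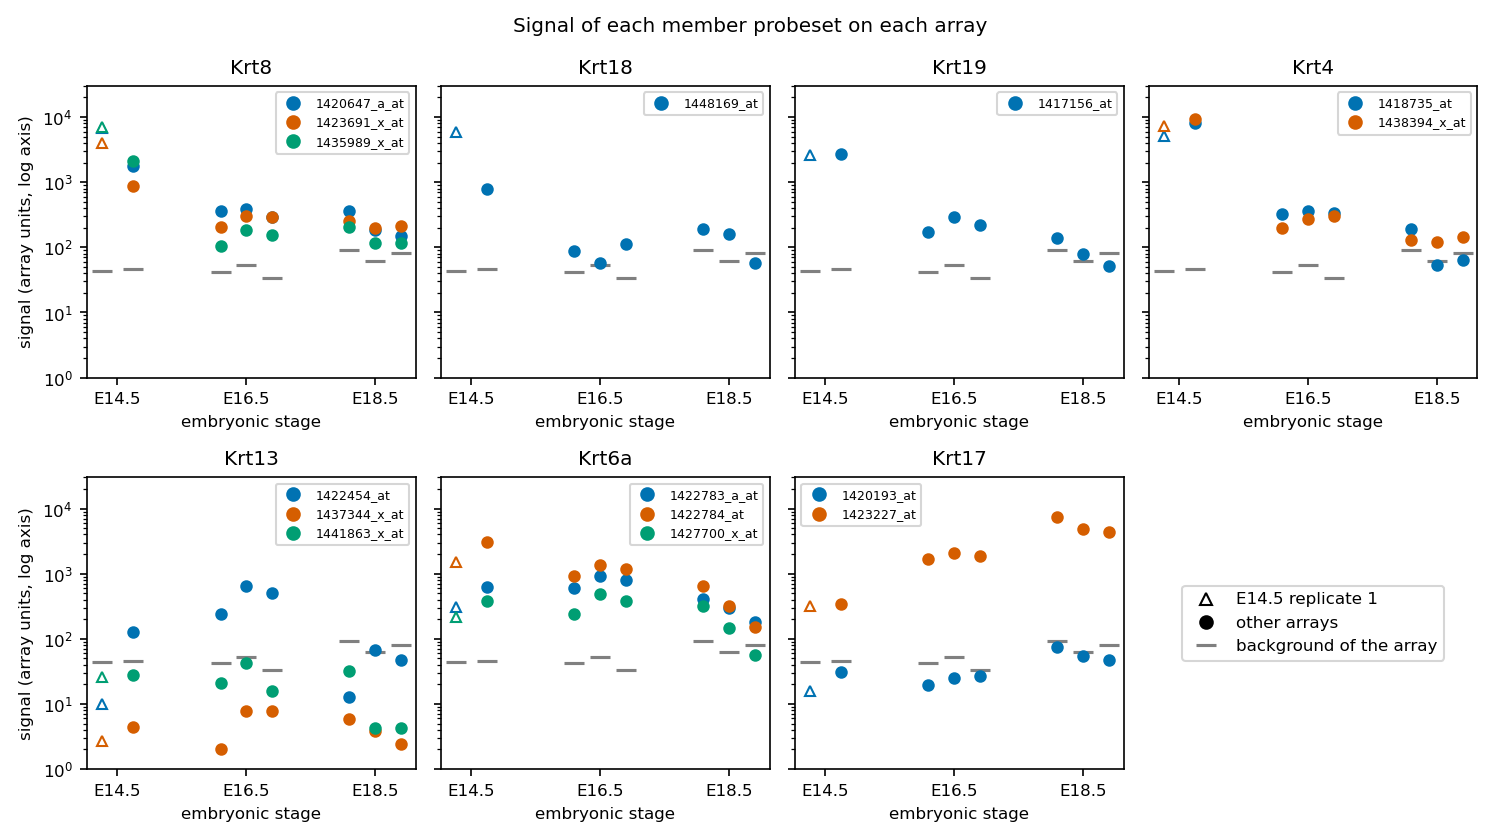
Signal of the 15 member probesets (array units, log axis) on each of the 8 arrays by embryonic stage, 1 panel per gene and 1 colour per probeset, with E14.5 replicate 1 as an open triangle and the background of each array as a grey bar. Krt8, Krt18, Krt19 and Krt4 were brightest at E14.5, 1 Krt13 probeset was brightest at E16.5, and 1 Krt17 probeset was brightest at E18.5.

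Of the simple epithelial keratins, Krt8 and Krt18 were far lower at E16.5 than at E14.5 and showed no called difference between E18.5 and E16.5. The Krt8 probeset 1420647_a_at gave 6892 and 1745 on E14.5 replicates 1 and 2, 356, 384 and 293 at E16.5 and 363, 186 and 147 at E18.5. The 2 E14.5 arrays lay above all 6 later arrays, and the later stages overlapped. Probeset 1435989_x_at gave 7079 and 2150 at E14.5, 104, 187 and 156 at E16.5 and 208, 118 and 117 at E18.5, with the same separation. The log2 change of 1420647_a_at at E16.5 against E14.5 was −3.28 ± 0.50 (SE, adjusted p = 0.000186), and the other Krt8 probesets, 1423691_x_at and 1435989_x_at, changed by −2.79 ± 0.48 and −4.60 ± 0.45. The suffix x marks probesets whose probes may also match other genes, which for keratins leaves their levels less certain. Against E16.5, the E18.5 differences of the 3 probesets were −0.63 ± 0.45, −0.25 ± 0.43 and −0.02 ± 0.40 (adjusted p = 0.395 to 0.977).

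Krt18, the type I partner of Krt8, gave 5947 and 791 on E14.5 replicates 1 and 2. At E16.5 it gave 86.8, 56.9 and 112, and at E18.5 192, 160 and 56.7, the last below background. Both E14.5 arrays were again above all later ones, and the later stages overlapped. The log2 change was −4.48 ± 0.71 at E16.5 against E14.5 (adjusted p = 0.000262) and 0.49 ± 0.64 at E18.5 against E16.5 (adjusted p = 0.657).

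Krt8 and Krt18 were also the members that differed most between the 2 E14.5 arrays in favour of replicate 1, the array with high liver transcripts. Krt18 was 7.39-fold higher there than on replicate 2, and only 0.512% of all tested probesets had a larger ratio. The 3 Krt8 probesets were 3.28-fold to 4.52-fold higher there. Krt19 was at 0.96-fold, the 2 Krt4 probesets at 0.63-fold and 0.77-fold, and the 3 Krt6a probesets at 0.50-fold to 0.59-fold of replicate 2. Hepatocytes make Krt8 and Krt18. The part of liver RNA in these signals was not tested. Set against E14.5 replicate 2 alone, on which Afp was low but above background, the log2 change to E16.5 was −2.30 ± 0.42 (adjusted p = 0.00157), −1.70 ± 0.29 (adjusted p = 0.00103) and −3.75 ± 0.40 (adjusted p = 6.81e-05) for the 3 Krt8 probesets (1420647_a_at, 1423691_x_at and 1435989_x_at) and −3.03 ± 0.58 (adjusted p = 0.00201) for Krt18. With replicate 1 as the only E14.5 array the same changes were −4.27, −3.88, −5.46 and −5.92. In each of these fits 1 array stands for E14.5, and its spread is taken to be that of the other stages.

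**Figure D2:**
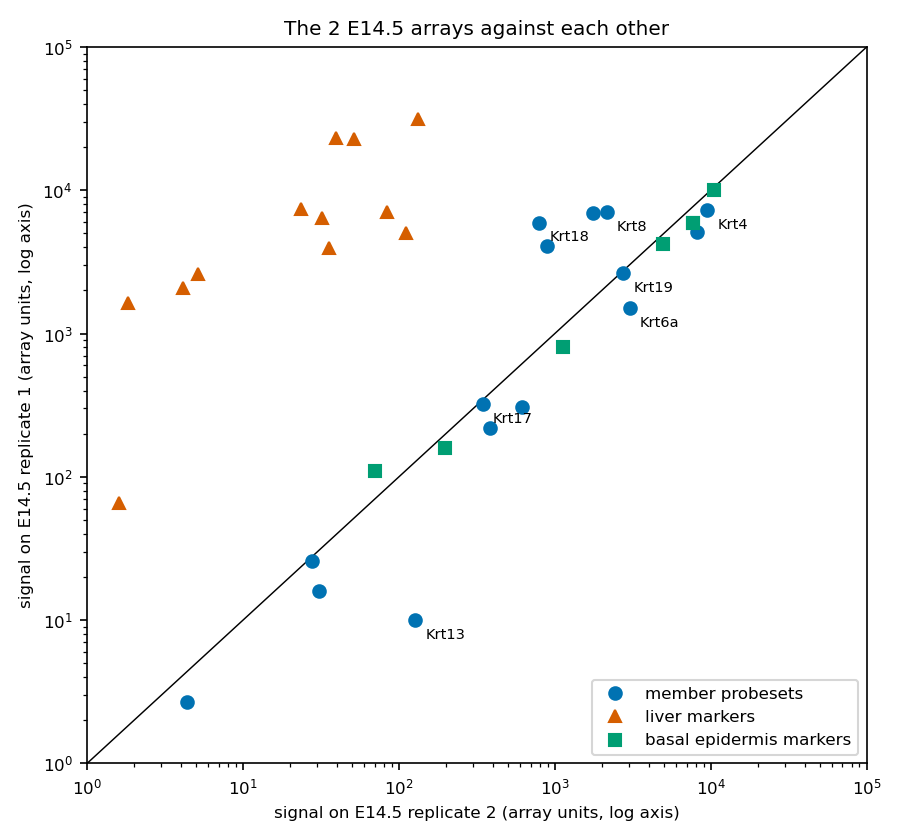
Signal on E14.5 replicate 1 (vertical, log axis) against replicate 2 (horizontal, log axis) for the 15 member probesets, 12 liver markers and 7 basal epidermis markers, with the line of equal signal. Liver markers lie far above the line, Krt8 and Krt18 lie above it, Krt19 lies on it, and Krt4, Krt6a and Krt13 lie below it.

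Merkel cell markers were mixed in direction. Atoh1, the transcription factor that specifies Merkel cells, was below background on both E14.5 arrays (23.4 and 22.4), gave between 72.5 and 100.2 at E16.5 and between 84.9 and 140 at E18.5, and rose at E16.5 against E14.5 (at least 1.60-fold, adjusted p = 0.00449). Krt20, a keratin of Merkel cells and gut, gave 615 on E14.5 replicate 1 and 2.78 on replicate 2, and lay below background on the other arrays except for 1 at E18.5. Of the 10 Merkel cell markers 2 fell (Piezo2 and Isl1) and 1 rose at E16.5 against E14.5, where 21.3% of all genes fell and 37.3% rose. In limma 0 of 10 were called at E18.5 against E16.5, with 0 at an unadjusted p under 0.05. Over all genes 6.90% were called higher and 5.23% lower there. The summed signal was 5597 and 5468 at E14.5, of which Piezo2, an ion channel gene that other cells also use, made up 4072 and 3819, whereas the sum was between 677 and 793 at E16.5 and between 734 and 833 at E18.5.

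Krt19, a type I keratin of simple epithelia with almost no tail domain, fell in both intervals. It gave 2637 and 2745 at E14.5, 173, 291 and 223 at E16.5 and 139, 80.3 and 51.6 at E18.5. No array of one stage overlapped another, and the E14.5 arrays were close to each other although their liver marker sums were far apart. The log2 change was −3.49 ± 0.33 at E16.5 against E14.5 (adjusted p = 5.43e-06). At E18.5 against E16.5 it was −1.26 ± 0.30 (adjusted p = 0.0243), at least 2.12-fold with 1 E18.5 array below background. Markers of mesothelium, another tissue that makes Krt19, summed to 408 and 580 on the E14.5 arrays and between 347 and 773 at E16.5. They summed to between 79.3 and 134 at E18.5, where 0 of 4 were above background on any array. Upk3b alone gave 264 and 367 at E14.5, between 240 and 589 at E16.5 and between 21.8 and 30.6 at E18.5. Of these markers 1 of 4 was called lower in each interval, beside 21.3% and then 5.23% of all genes. Their part in the Krt19 signal was not tested. In skin measured in bulk, fewer cells of a type and less RNA per cell cannot be told apart, here and for every member.

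Krt4, the mucosal and periderm type II keratin, had the largest decrease of the 7 genes at E18.5 against E14.5. Probeset 1438394_x_at gave 7236 and 9428 at E14.5, 199, 271 and 307 at E16.5 and 128, 119 and 143 at E18.5. Probeset 1418735_at gave 5116 and 8183 at E14.5, 322, 364 and 334 at E16.5 and 190, 54.5 and 64.6 at E18.5, the last pair of arrays below background. In both probesets the stages were separate, and the array with low liver transcripts was the brighter one at E14.5. At E16.5 against E14.5 the log2 changes were −4.93 ± 0.21 (adjusted p = 4.08e-08) and −4.19 ± 0.40 (adjusted p = 5.39e-06). At E18.5 against E16.5 they were −0.90 ± 0.19 (adjusted p = 0.0159) and −1.76 ± 0.36 (adjusted p = 0.0128), with 1418735_at at least 3.07-fold lower.

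Krt13, the type I partner of Krt4 in mucosa, had its peak at E16.5 in the 1 probeset of 3 that was above background. Probeset 1422454_at gave 10.0 and 126 on E14.5 replicates 1 and 2, 242, 651 and 510 at E16.5 and 12.8, 66.5 and 46.7 at E18.5, where 1 array was above background. The E16.5 arrays lay above all others. The log2 change was 2.88 ± 0.70 at E16.5 against E14.5 (adjusted p = 0.00439, at least 4.86-fold) and −3.08 ± 0.62 at E18.5 against E16.5 (adjusted p = 0.0128, at least 4.71-fold). The rise was not called with E14.5 replicate 2 as the only E14.5 array (1.66 ± 0.65, adjusted p = 0.0607). A test of the second change against the first gave −5.97 ± 1.12 (adjusted p = 0.00137), and −7.19 to −4.35 over 19 alternatives, each of them called. The other 2 Krt13 probesets stayed at background on all 8 arrays (2.00 to 43.0) and bear on no change. Of the 4 markers of mouth and oesophagus, 0 were above background at E14.5, 0 or 1 at E16.5 and 1 or 2 at E18.5. They summed to 60.2 and 95.2 on the E14.5 arrays, between 96.5 and 139 at E16.5 and between 266 and 392 at E18.5. At E18.5 against E16.5, 1 of 4 was called higher and 0 lower, beside 6.90% and 5.23% of all genes.

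On the same arrays Krt4 was thus called lower and Krt13 higher at E16.5 against E14.5. The difference of their log2 signals, of which only the shift between stages can be read, was 6.05 on E14.5 replicate 2, between −1.22 and −0.26 at E16.5 and 0.71 on E18.5 replicate 2, the arrays on which both were above background. For Krt8 minus Krt18 it was 0.21 and 1.13 on the E14.5 arrays, between 1.27 and 2.46 at E16.5 and 0.87 and 0.20 on E18.5 replicates 1 and 2. For Krt8 minus Krt19 it was 1.38 and −0.65 on the E14.5 arrays, between 0.37 and 0.98 at E16.5 and 1.29 and 1.07 on E18.5 replicates 1 and 2. Krt18 and Krt19 were below background on E18.5 replicate 3, which is left out.

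Krt6a, the type II keratin of periderm and wounded skin, fell between E16.5 and E18.5. Probeset 1422784_at gave 1513 and 3019 at E14.5, 929, 1381 and 1187 at E16.5 and 651, 316 and 154 at E18.5. All E18.5 arrays were below all E16.5 arrays, with a log2 change of −1.80 ± 0.42 (adjusted p = 0.0244). Probeset 1422783_a_at gave 307 and 615 at E14.5, 595, 919 and 797 at E16.5 and 413, 296 and 181 at E18.5, a change of −1.38 ± 0.32 at E18.5 against E16.5 (adjusted p = 0.023). In the third, 1427700_x_at, the stages overlapped and the change of −1.22 ± 0.48 was not called (adjusted p = 0.134). At E16.5 against E14.5 the 3 probesets differed in sign (−0.89 ± 0.48, 0.78 ± 0.36 and 0.28 ± 0.54 in the order given), and none was called (adjusted p = 0.137, 0.0877 and 0.689), so no course over that interval can be given for Krt6a. For 1422784_at both E14.5 arrays lay above all E16.5 arrays. It was called lower at E16.5 in 3 of 20 alternatives, among them median centring (−1.73, limma adjusted p = 0.00887). Probeset 1422783_a_at was called higher with E14.5 replicate 1 as the only E14.5 array (1.26).

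Krt17, the type I keratin of periderm, hair placode and outer root sheath, rose in both intervals. Probeset 1423227_at gave 323 and 344 at E14.5, 1697, 2107 and 1865 at E16.5 and 7405, 4825 and 4364 at E18.5. The 3 stages were separate, and the E14.5 arrays were close to each other. The log2 change was 2.44 ± 0.21 at E16.5 against E14.5 (adjusted p = 2.39e-06) and 1.51 ± 0.19 at E18.5 against E16.5 (adjusted p = 0.00127). The other Krt17 probeset, 1420193_at, was at or below background on all arrays (15.9 to 75.9). Krt6a minus Krt17 in log2 signal was 2.17 and 3.08 at E14.5, between −0.86 and −0.60 at E16.5 and between −4.69 and −3.48 at E18.5. The difference was thus lower on every array of each later stage. For Krt6a it uses probeset 1422784_at alone, and the Krt6a probesets differed in sign in the first interval.

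Of the 8 markers of hair follicle and companion layer, 5 rose, 2 fell (Sox9 and Edar) and 1 was not called at E16.5 against E14.5. Over all genes 37.3% rose and 21.3% fell there. The median log2 change was 1.31 for the list and 0.30 over all genes. In the second interval 5 rose, 0 fell (0 also at an unadjusted p under 0.05) and 3 were not called at E18.5 against E16.5 in limma, with a median log2 change of 1.42 against 0.12 over all genes. Of all genes 6.90% rose and 5.23% fell in that interval. The sum of the 8 markers was 5008 and 6742 on the E14.5 arrays, between 13909 and 16735 at E16.5 and between 24389 and 38543 at E18.5. E18.5 replicate 1 had both the highest follicle sum and the highest signal of its stage in 10 of the 12 member probesets that were above background on at least 2 arrays. That array also had the highest background of its stage (92.2). E16.5 replicate 2 likewise held the highest signal of its stage in 10 of 12, but the highest follicle sum at E16.5 was on replicate 3 (16735). Several of the 12 are probesets of the same gene, and the share over all probesets was not computed, so these counts bear on no link to follicle content. The part of follicle cells in the Krt17 signal was not tested. Basal epidermis markers, of which 2 of 7 rose beside 6.90% of all genes, summed to 50472 to 58958 at E18.5 and 42434 to 47534 at E16.5. All arrays were also centred on these 7 genes, a setting added after seeing the data. Krt17 probeset 1423227_at was then called higher at E18.5 against E16.5 (log2 1.22, limma adjusted p = 0.00202). The part of epidermal content in the Krt17 change was not tested.

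In all, 6 of the 15 member probesets were called lower and 1 higher at E18.5 against E16.5, where 4.44% and 6.27% of all 34945 probesets were. The lower ones belong to Krt19, Krt4, Krt13 and Krt6a. At E16.5 against E14.5, 7 were lower and 2 higher, against 18.7% and 38.9% of all probesets. At E18.5 against E14.5, which shares its arrays with the other comparisons, 8 were lower and 2 higher, against 16.9% and 42.9% of all probesets, with the largest change in Krt4 (1418735_at, log2 −5.94 ± 0.40, at least 55.9-fold, adjusted p = 5.1e-07). Of the 2 higher ones, Krt17 probeset 1420193_at was above background on no array, and its result changed in 8 of 17 alternatives. A test of the second change against the first called 7 higher and 3 lower, against 15.8% and 29.1% of all probesets, and the lower call of Krt17 probeset 1423227_at (adjusted p = 0.0425) was lost in 12 of 19 alternatives. The median log2 change of the 15 probesets was −0.63 at E18.5 against E16.5 and −0.89 at E16.5 against E14.5, beside 0.12 and 0.38 for all probesets. Median centring of the arrays moved the medians of all probesets to −0.05 and −0.47, and quantile normalization to 0.00 and 0.01. The share of all calls that were higher moved with them, being 29.9% under median centring, 50% under quantile normalization and 58.6% as deposited at E18.5 against E16.5, and 36.6%, 52.5% and 67.5% at E16.5 against E14.5. Under each of these scalings Krt17 probeset 1423227_at was called higher, and Krt8, Krt18, Krt19 and Krt4 were called lower at E16.5 against E14.5.

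The calls between E16.5 and E18.5 rest on few arrays. Without E16.5 replicate 2, or without replicate 3, the count of called members was 1, the Krt17 probeset, against 7 with all arrays, while the calls over all probesets numbered 1563 and 1208, against 3742 with all arrays. Without E18.5 replicate 2 the count was 4. The 6 decreases had adjusted p = 0.0528 to 0.101 without either of the E16.5 arrays, and their log2 changes stayed near their values, with Krt4 (1438394_x_at) at −0.86 and −0.77 (adjusted p = 0.0686 and 0.0842) and Krt13 at −2.80 and −2.97 (adjusted p = 0.0585 and 0.0609).

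**Figure D3:**
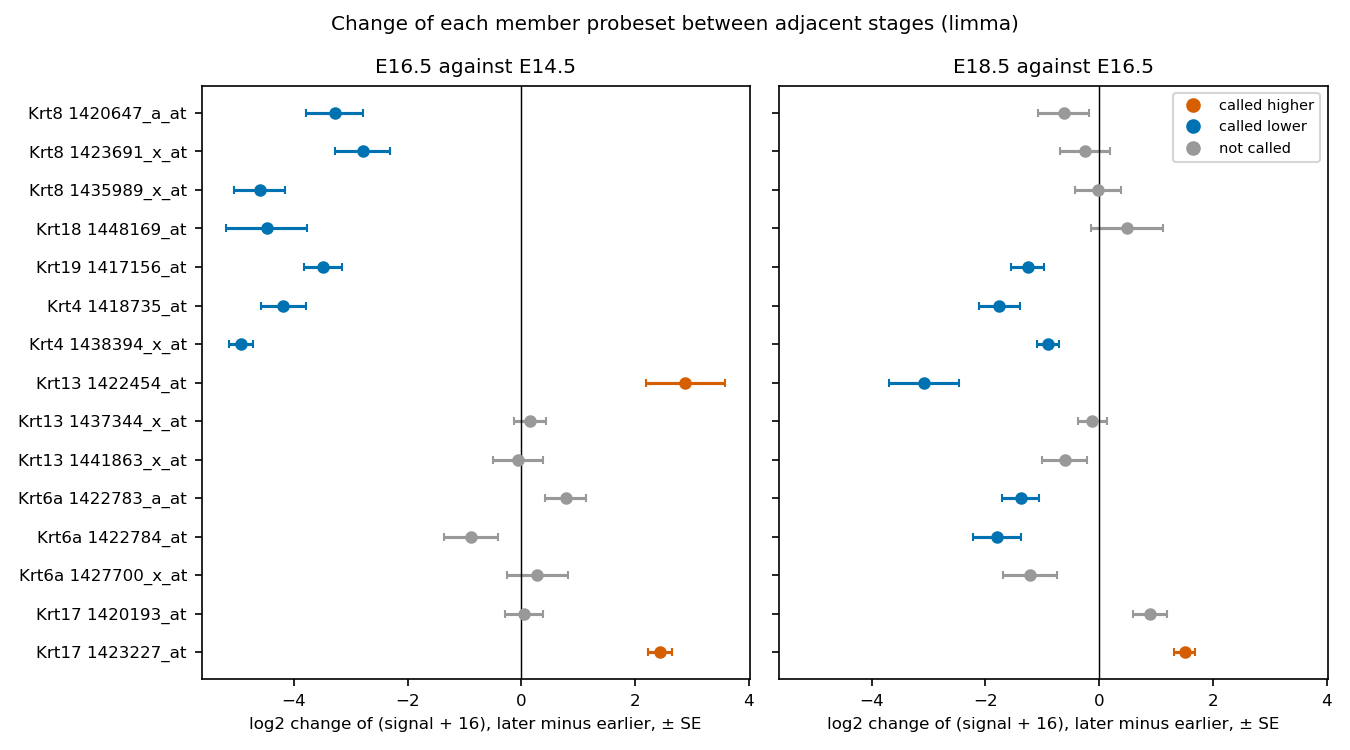
Log2 change of (signal + 16), later minus earlier, with its SE for the 15 member probesets, at E16.5 against E14.5 (left) and E18.5 against E16.5 (right), coloured by limma call. Krt8, Krt18, Krt19 and Krt4 lie far to the left in the first interval, and Krt17 probeset 1423227_at lies right of 0 in both.

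Other genes of simple epithelium and periderm were mixed in direction. Of 14 measured, 7 rose, 4 fell and 3 were not called at E16.5 against E14.5, where 37.3% of all genes rose and 21.3% fell. Krt80, a widely expressed epithelial keratin (log2 4.53 ± 0.25), and Cldn4, a tight junction claudin (4.06 ± 0.24), rose most. Cldn6 and Cldn7, also claudins, fell (at least 6.13-fold and 4.74-fold), but their E14.5 signals were 1518 and 68 for Cldn6 and 1182 and 84 for Cldn7 on replicates 1 and 2, and without replicate 1 neither was called (adjusted p = 0.248 and 0.335). The calls were also lost without E16.5 replicate 1 for Cldn6 (adjusted p = 0.0531), and for Cldn7 on leaving out E16.5 replicate 2 or 3 (adjusted p = 0.0646 and 0.0631). At E18.5 against E16.5, 1 of 14 rose and 3 fell, beside 6.90% and 5.23% of all genes. Cldn4 (−1.97 ± 0.22) and Krt7, a simple epithelial type II keratin (−1.59 ± 0.21, adjusted p = 0.00193), were the largest falls. Cldn3 was called higher, but 1 of 3 E18.5 arrays and 0 of 3 E16.5 arrays were above background, so no size is given.

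Periderm regulators and envelope precursors split evenly at first, with 4 of 8 higher and 4 lower at E16.5 against E14.5. Over all genes 37.3% rose and 21.3% fell there. Sfn, encoding 14-3-3 sigma (3.17 ± 0.14), and Grhl3, a grainyhead factor (2.90 ± 0.25), rose most, and Grhl2, its paralogue (−2.65 ± 0.14), and Ripk4, a kinase needed for periderm (−2.31 ± 0.21), fell most. At E18.5 against E16.5, where 5.23% of all genes fell and 6.90% rose, 4 of 8 fell. Among them were Grhl3 (−1.80 ± 0.22) and Ppl, encoding the envelope protein periplakin (−0.87 ± 0.15). Ripk4 (0.80 ± 0.19, adjusted p = 0.0261) and Trp63 (0.78 ± 0.16, adjusted p = 0.0141) rose, and both calls were lost under median centring (adjusted p = 0.0822 and 0.0504). Without single arrays, the Trp63 call was lost for E16.5 replicates 1 and 3 (adjusted p = 0.0581 and 0.0692) and the Ripk4 call for any E16.5 array and for E18.5 replicates 1 and 2 (adjusted p = 0.0545 to 0.0967).

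The keratins closest to Krt6a and Krt17 took their own courses. Krt6b, the near copy of Krt6a, gave 16.7 and 13.2 at E14.5, both below background, between 239 and 313 at E16.5 and between 121 and 186 at E18.5. It was at least 4.63-fold higher at E16.5 than at E14.5 (adjusted p = 3.71e-06), and its change at E18.5 against E16.5 was −0.82 ± 0.26 (adjusted p = 0.0688). Krt16, a wound keratin and partner of Krt6a, was at least 6.10-fold higher at E16.5 than at E14.5 (adjusted p = 2.76e-05) and changed by 0.24 ± 0.29 at E18.5 against E16.5 (adjusted p = 0.627). Krt42, a close relative of Krt17, was at least 10.3-fold higher at E16.5 than at E14.5 (adjusted p = 3.14e-07) and changed by 0.64 ± 0.19 at E18.5 against E16.5 (adjusted p = 0.0578). Probes can cross between such genes, so their separate values are uncertain. Within this list of 9 stress and wound genes, 5 rose in the first interval, with Krt42 and Sprr2d, an envelope precursor gene (at least 3.04-fold), first by fitted change, and 1, S100a9, fell (−1.17 ± 0.44, a call lost without either E14.5 array, any E16.5 array or E18.5 replicate 2, with adjusted p = 0.0556 to 0.255). In the second interval Krt75, a companion layer keratin (at least 8.86-fold), and Sprr2d rose and Sprr1b fell. Over all genes 37.3% rose and 21.3% fell in the first interval, and 6.90% and 5.23% in the second.

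Among 11 partners of the filament network, 7 rose and 2 fell at E16.5 against E14.5. Over all genes 37.3% rose and 21.3% fell there, and 6.90% and 5.23% at E18.5 against E16.5. Krt77 (log2 2.91 ± 0.25) and Krt15, a basal type I keratin (1.73 ± 0.17), rose most, and the falls were Eppk1, encoding the keratin linker epiplakin (−1.23 ± 0.24), and Dsp, encoding desmoplakin (−0.74 ± 0.11). At E18.5 against E16.5 limma called 0 higher and 1 lower, Krt77, where at an unadjusted p under 0.05 4 were higher and 2 lower, and up to 4 of the 11 were called under other settings. Under median centring the split of the first interval was 5 higher and 4 lower.

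The genes with the profile most like each member over the 8 arrays were found among 14308 other genes by the root mean square (RMS) difference of mean-centred log2 signals. For Krt17 they were Dpep1 (RMS 0.22), Lrrc15 (0.23) and Cyp2b10 (0.24), beside a median of 1.36 over all candidates. Dpep1 gave 47.6 and 50.5 on the E14.5 arrays, between 353 and 447 at E16.5 and between 1181 and 1448 at E18.5. For Krt6a they were Elf5 (0.44), Gdpd1 (0.51) and Ston2 (0.52). Krt13 had no close match, with Dynap at 0.68, C130073F10Rik at 0.76 and Orm1 at 0.79. Orm1 gave 641 and 1778 on the E14.5 arrays, between 3866 and 4703 at E16.5 and between 709 and 1680 at E18.5.

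For Krt8 the nearest genes were Peg10 (0.42), Lrrc3 (0.43) and Rffl (0.49), and for Krt18 Spsb4 (0.42), Prr15 (0.56) and Tmprss2 (0.59). Each of these 6 was also brighter on E14.5 replicate 1 than on replicate 2. The choice by profile used both of these arrays, so it favoured genes that share this difference with Krt8 and Krt18. Prr15, for example, gave 1183 and 131 on E14.5 replicates 1 and 2 and 4.25 to 9.77 on the later arrays. For Krt19 they were Rap2b (0.37), Pde5a (0.37) and Plekhh1 (0.37), and for Krt4 Rpl27a (0.29), Pacc1 (0.36) and Tti2 (0.38). Rpl27a, a ribosomal protein gene, gave 26082 and 27223 on the E14.5 arrays, between 863 and 950 at E16.5 and between 265 and 477 at E18.5. Arrays of 1 stage share whatever sets that stage's arrays apart, and these values carry no test.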

How the data were processed

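RNA from wild-type mouse dorsal skin was measured on 8 single-colour Affymetrix Mouse 430 2.0 arrays. The authors deposited linear signal intensities for 45101 probesets, and no log scale was applied in the deposited table. Expression Console 1.1 and PLIER 2.0 are named per the submitters' processing notes, and further normalization was not given in the sources used here. Per the labels' protocols, cDNA was primed with random hexamers. Probesets were named through the platform annotation given with the files. Controls (64), probesets with several symbols (932) and those with none (9211) were left out, leaving 34945.

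Signals were analysed as log2(signal + 16). limma 3.58.1 in R 4.3.3 fitted 1 mean per stage over all 8 arrays with a variance trend, and p-values were adjusted by the Benjamini-Hochberg method. Tests were checked on simulated data. The number of arrays limits the precision, and no read depth applies.

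The text names all member probesets, the 2 largest called rises and falls of each gene list per interval, keratins that may share probes with a member, and the 3 genes nearest in profile to each member. Lists were represented by 1 probeset per gene, that of the highest mean. The members and lists were chosen with earlier results of these data known. Alternatives covered the pseudocount, scaling, filters on dim probesets, variance settings, array weights, the unit tested, the arrays fitted and leaving out each array. Centring on basal epidermis genes was added after seeing the data.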

Additional observations from a re-analysis of the deposited data

How the results depend on the processing

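Over the alternatives run, the 15 member probesets kept their side of the threshold in 265 cases at E18.5 against E16.5. They lost a call in 19, gained one in 2 and reversed in 0. A reversal was counted only where the sign changed and either fit was called. Sign changes between uncalled fits therefore count as kept. At E16.5 against E14.5 the numbers were 278, 1, 5 and 2, at E18.5 against E14.5 263, 6, 13 and 4, and for the second change minus the first 248, 20, 3 and 0. The count of called members at E18.5 against E16.5 was 7, and it was 4 without a variance trend, 4 of 7 genes with the mean of a gene's probesets, and 1 to 8 when single arrays were left out. At E16.5 against E14.5 it was 9, and 8 to 10 when single arrays were left out. At E18.5 against E14.5 it was 10, with 6 of 7 genes called by 1 probeset per gene and 6 by their mean, where fewer features were tested, and 10 to 11 with arrays left out. For the second change minus the first it was 10, with 6 genes by 1 probeset per gene and 5 by their mean, and 7 to 11 with arrays left out. Reversals so counted concerned 2 probesets at background only. Uncalled sign changes also occurred in brighter probesets. Under median centring at E16.5 against E14.5, Krt6a probeset 1422783_a_at went from 0.78 to −0.07 and 1427700_x_at from 0.28 to −0.57. At E18.5 against E14.5, Krt17 probeset 1420193_at was at −0.078 and Krt13 probeset 1437344_x_at at −0.99 under median centring, and at −0.52 and −1.43 when centred on basal epidermis genes. At E16.5 against E14.5 they were at −1.13 and −1.03 when centred on basal epidermis genes. The cause was not tested. No paired analysis was possible because the codes in the sample titles are unexplained and no stages compared share more than 1 leading number in them. Signals near background limit Krt13, Krt18 and the later Krt4 and Krt19 values, and the 2 E14.5 arrays limit every comparison with that stage.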
